A study of Rattus norvegicus with 4 samples.

Results

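The genes described here carry out bile acid uptake in the ileum and the signalling of the farnesoid X receptor (FXR) that follows it. They were found by name among the gene probes of an Agilent rat array: Slc10a2, Fabp6, Nr1h4, Nr0b2, Fgf15, Fgf19 and Gpbar1, 7 names in all. Of these, 6 had a probe, each with 1 probe printed in 1 spot, so that the set held 6 of 41012 gene probes. No probe carried the name Fgf19. The rat gene that the array calls Fgf15 has the symbol Fgf19 in the current GRCr8 gene table, so both names stand for the same probe. The arrays measured small intestine, with Peyer's patches removed, of individual male Wistar rats, an outbred stock. The 2 control rats drank tap water, and the 2 compost rats drank tap water holding 1% (v/v) of a heat-incubated watery extract of fermented compost for 12 weeks, beginning when they were 3 weeks old. Each rat had 1 single-colour array, and the tissue label does not name the segment of the small intestine. The question put to these genes was whether their levels differed with the extract, and what they show of the segment sampled.

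Bile acids are made from cholesterol in the liver, secreted into the upper intestine and recovered in the ileum. There the apical transporter SLC10A2 takes them into the enterocyte, FABP6 binds them in the cytosol and the heterodimer SLC51A-SLC51B passes them to the portal blood. Inside the cell they activate FXR, the nuclear receptor encoded by Nr1h4, which pairs with an RXR partner and induces Fabp6, the SLC51 genes, the corepressor gene Nr0b2 (SHP) and Fgf15, whose protein travels to the liver and represses bile acid synthesis. GPBAR1 (TGR5) is the cell-surface bile acid receptor.

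The promoters of the transporter and of the carrier are shown because both genes mark the ileum and the sequence motifs known for their regulation differ. Of the 6 genes, Fabp6, Slc10a2, Nr0b2 and Gpbar1 (4 genes) were matched by symbol in a RefSeq promoter table of the GRCr8 build. Below are the 250 bases before the annotated start of each, 5′ to 3′ on the strand of the gene, for Fabp6 at chr10:28569728-28569977 on the minus strand and for Slc10a2 at chr16:91087839-91088088 on the plus strand. Capitals mark the motif matches described after them.
Fabp6: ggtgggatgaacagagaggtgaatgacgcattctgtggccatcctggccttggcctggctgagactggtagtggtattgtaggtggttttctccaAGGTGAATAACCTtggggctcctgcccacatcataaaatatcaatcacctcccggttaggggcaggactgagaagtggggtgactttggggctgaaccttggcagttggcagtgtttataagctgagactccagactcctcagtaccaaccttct
Slc10a2: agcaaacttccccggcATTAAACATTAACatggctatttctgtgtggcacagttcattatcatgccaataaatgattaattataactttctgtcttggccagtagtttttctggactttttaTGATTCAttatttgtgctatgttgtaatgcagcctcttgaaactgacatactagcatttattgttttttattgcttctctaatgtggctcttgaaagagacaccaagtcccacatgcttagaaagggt

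In the Fabp6 promoter the capitals, AGGTGAATAACCT, match the element of FXR and RXR, an inverted repeat of the half-site AGGTCA with any 1 base between, with 2 mismatches. They lie 155 to 143 bases before the start, at chr10:28569870-28569882. A match this close, on either strand, was found in 1.51% of 33465 promoters, each searched over 250 bases before and 50 after the start. In the Slc10a2 promoter the first capitals, ATTAAACATTAAC, match the site of the hepatocyte nuclear factors HNF1, an inverted repeat of GTTAAT with any 1 base between, with 2 mismatches, a closeness found in 1.19% of promoters. The later capitals match TGANTCA, the pattern searched for the AP-1 site, in which N is any base and is T here. They lie 128 to 122 bases before the start, and 7.33% of promoters held a match to this loose pattern. The best match to the FXR repeat had 4 mismatches in both Slc10a2 and Nr0b2, which 57.7% of promoters also reach, and 5 in Gpbar1. These matches describe letters and not binding.

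Depending on the array, 66.5% to 71.0% of gene spots exceeded the background clearly (called well above background: 13 times the standard deviation of the background, per the file headers), and the arrays correlated with each other at r = 0.981 to 0.988 over 28417 probes, which are not independent replicates. Levels are given as scaled log2 intensity, the log2 of the processed intensity minus the array's 75th percentile, so that 0 is that percentile. A probe's level is not comparable with another probe's. Differences are compost minus control from limma over all 28417 probes tested, with the standard error (SE), 95% interval and Benjamini-Hochberg adjusted p. With 2 rats per group an exact permutation test of a single gene cannot give a p below 0.333, and the number of arrays limits the precision. All 4 arrays lay on 1 slide with the groups at separate positions, so position and group cannot be told apart. By limma with adjusted p under 0.05, 0 of the 28417 probes passed in either direction (0.0%), with 913 at an unadjusted p under 0.05. Both compost arrays lay above both control arrays for 12.3% of probes and below them for 15.6%. With median scaling in place of the 75th percentile this split of 3489 higher and 4433 lower became 4541 and 3502.

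Control 1 stood apart from the other rats in some markers of intestinal position. Gata4, the transcription factor of duodenum and jejunum that is off in the distal ileum and holds ileal genes such as Slc10a2 and Fabp6 down, had a scaled log2 intensity of -0.74 in control 1. It was -7.62 in control 2, -7.84 in compost 1 and -6.50 in compost 2, and was not well above background on any of these. The differences of the 4 genes tested are therefore given with and without control 1.

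None of the 4 genes tested (Slc10a2, Nr1h4, Nr0b2 and Fgf15) passed between compost and control. On the scaled values the groups did not overlap for Nr1h4, higher in compost, or for Nr0b2, lower in compost. Over all probes tested the same held for 12.3% higher and 15.6% lower. Before scaling, the groups of both genes overlapped. Slc10a2 and Fabp6 were well above background in all 4 rats. Fgf15 varied more between rats of the same group than the group means differed, and Gpbar1 was near the limit of detection.

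Slc10a2 (probe A_43_P15449; gene at chr16:91088089-91111025, GRCr8) encodes the apical sodium-dependent bile acid transporter, which performs the uptake step. Its scaled log2 intensity was 5.06 in control 1, 5.89 in control 2, 5.53 in compost 1 and 6.02 in compost 2. Control 1 was lowest, compost 2 was highest and the groups overlapped. The compost mean of 5.77 exceeded the control mean of 5.47 by 0.30 ± 0.36 (SE, n = 2 and 2; 95% interval -0.65 to 1.25), a ratio of 1.23, with adjusted p = 0.9997 by limma. Without control 1 the difference was -0.11, so its direction rested on that array. The interval still holds a ratio from 0.639 to 2.38. Before scaling, the processed intensities were 25722 and 45159 in the control rats and 45820 and 47517 in the compost rats, which did not overlap. The nearest pair, compost 1 and control 2, lay only 0.021 log2 units apart. The median SD between repeat spots of a probe on the same array was 0.065 to 0.079. Under each scaling tried the groups overlapped. In whole tissue, fewer cells of a type and less RNA per cell cannot be told apart, here and in every result that follows.

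Fabp6 (probe A_42_P549451; gene at chr10:28565054-28569727), the cytosolic bile acid carrier also called ileal lipid-binding protein, was at the top of the scanner's range in every rat. Its raw intensities were between 646348 and 651519, at the saturation value of each array (646184 to 651353), and its spot was 1 of only 2 gene spots flagged as saturated on all 4 arrays. The scaled values of 9.86 and 9.85 in the control rats and 9.46 and 9.92 in the compost rats are therefore ceilings. Compost 1 has the lowest of them and also the highest 75th percentile, which is subtracted. No difference between the groups can be given for Fabp6 from these arrays, in either direction.

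**Figure D1:**
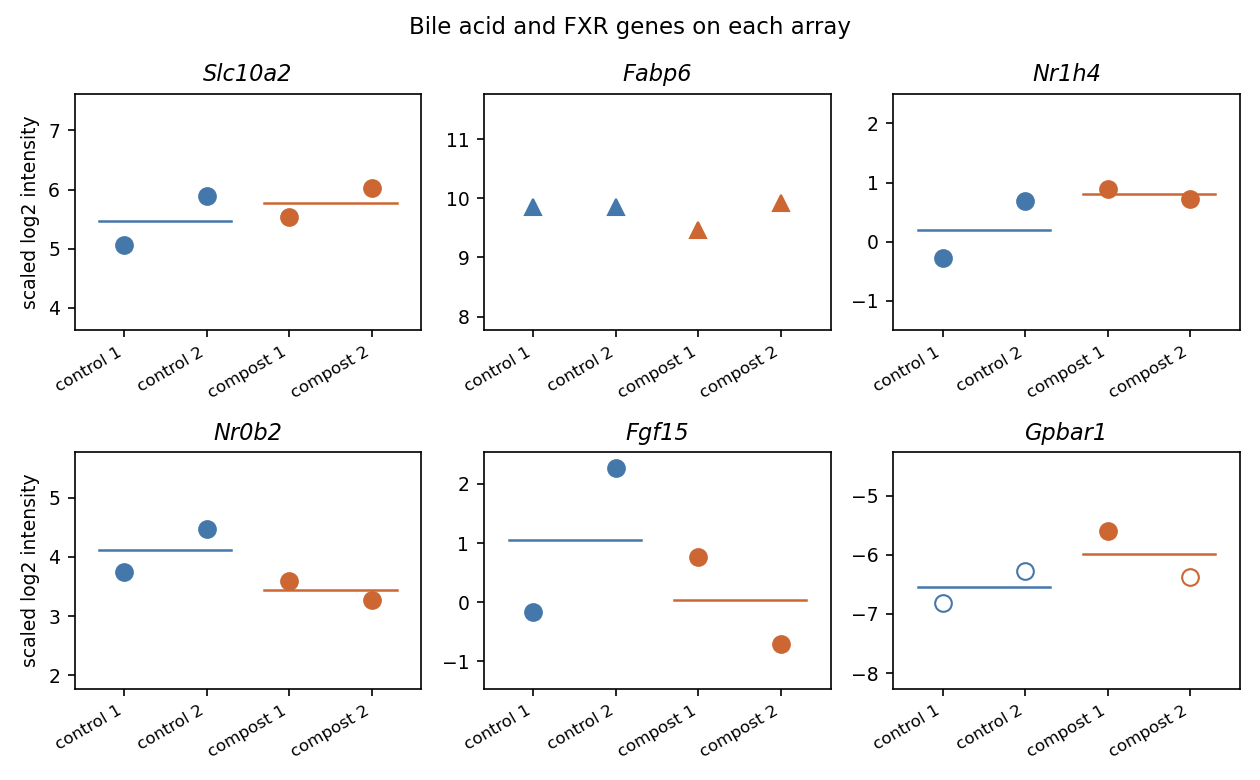
Scaled log2 intensity of each gene on each of the 4 arrays, in panels that all span 4 log2 units on axes of their own, with horizontal lines at the group means; triangles (Fabp6) are saturated spots and open circles (Gpbar1) are spots not well above background. Control 1 is lowest for Slc10a2 (5.06) and Nr1h4 (-0.27), control 2 is highest for Nr0b2 (4.48) and Fgf15 (2.27), and the spread of Fgf15 is the widest.

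Nr1h4 (probe A_44_P177713; gene at chr7:25733471-25829440) encodes FXR itself. It measured -0.27 in control 1, 0.68 in control 2, 0.89 in compost 1 and 0.72 in compost 2. The compost rats both lay higher than the control rats, but the nearest pair, compost 2 and control 2, differed by 0.043, less than the median SD of 0.065 to 0.079 between repeat spots of a probe on the same array. The low value of control 1 made most of the mean difference, which was 0.60 ± 0.36 (95% interval -0.34 to 1.55), or 1.52-fold, with adjusted p = 0.9997 by limma. Without control 1 it was 0.13. Before scaling the groups overlapped, at 640 and 1217 in control against 1837 and 1204 in compost.

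Nr0b2 (probe A_43_P13041; gene at chr5:151063160-151066475) encodes SHP, an orphan receptor without a DNA-binding domain that FXR induces and that represses other nuclear receptors. It measured 3.75 in control 1, 4.48 in control 2, 3.59 in compost 1 and 3.28 in compost 2. Both control rats lay above both compost rats, and the nearest pair, control 1 and compost 1, differed by 0.163. That gap is wider than the median SD of repeat spots but narrower than its 95th percentile, which was 0.270 to 0.433 across arrays. The difference was -0.68 ± 0.31 (95% interval -1.50 to 0.14), a level 1.60-fold higher in control, with unadjusted p = 0.0836 and adjusted p = 0.9997 by limma. It was -1.04 without control 1 and -0.32 without control 2. The processed intensities before scaling were 10405 and 16966 in control and 11951 and 7082 in compost, so that compost 1 lay above control 1 until the arrays were scaled.

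Fgf15 (probe A_43_P13131; Fgf19 in the gene table, at chr1:209485813-209490267) is the hormone that the ileum sends to the liver. It measured -0.17 in control 1, 2.27 in control 2, 0.76 in compost 1 and -0.70 in compost 2. The 2 control rats differed by 2.43 log2 units, or 5.41-fold, a gap at least as wide in only 0.567% of the probes tested. The 2 compost rats differed by 1.46, or 2.74-fold, as wide in 2.82% of probes. Each group held a high and a low rat, and the ranges overlapped over the whole span of the compost pair but its lowest part. The group difference was -1.02 ± 0.95 (95% interval -3.51 to 1.47), with adjusted p = 0.9997 by limma, and it changed sign when control 2 was left out, to 0.20. Without control 1 it was -2.23.

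Control 2 was highest and compost 2 lowest for both Nr0b2 and Fgf15. Slc51a and Slc51b, which FXR also induces and whose values follow, were highest in compost 2. Nr1h4 did not have this order: its highest value was in compost 1 and its lowest in control 1. Over 4 arrays no correlation is given.

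**Figure D2:**
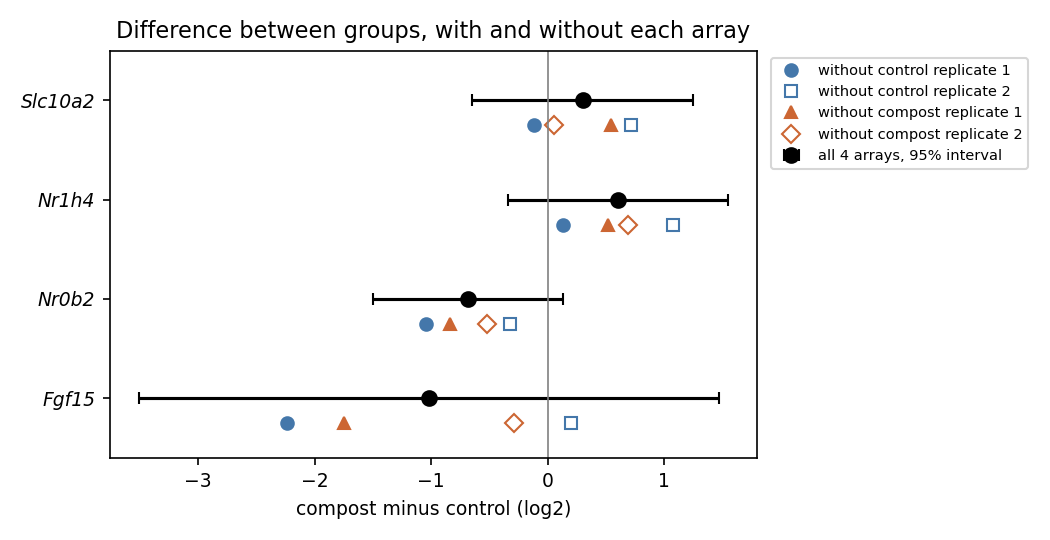
Compost minus control in log2 units for the 4 genes that could be tested, as black points with 95% intervals over all 4 arrays and as coloured symbols after leaving out each array. All 4 intervals include 0, and the Slc10a2 and Fgf15 differences cross 0 when control 1 (-0.11) or control 2 (0.20), respectively, is left out.

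Gpbar1 (probe A_44_P557172; gene at chr9:83309895-83312397), the surface receptor found in enteroendocrine cells and macrophages, was well above background only in compost 1. Its scaled log2 intensity was -5.59 there, against -6.38 in compost 2, -6.81 in control 1 and -6.27 in control 2, which were not well above background. It was not tested, and no fold is given because the compost mean did not exceed the detection limit of the control arrays. The order of the rats also depended on the background correction. With the normexp correction compost 1 was lowest (-3.662), against -3.645 and -3.544 in control and -3.503 in compost 2. Compost 1 had the most macrophage marker signal. All 9 of 9 macrophage markers were well above background on every array, and their summed linear scaled level was 76.5 in compost 1, 48.0 in compost 2 and 34.2 to 46.7 in the control rats. C1qa (4.78 in compost 1) and C1qb (5.15) weigh most in that sum. The mean scaled log2 level was 1.31 in compost 1, 0.39 in compost 2 and 0.26 to 0.37 in control. Compost 1 was highest for 7 of the 9 markers, beside 27.2% of all probes tested. The part of the macrophage markers in the Gpbar1 value was not tested.

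No other gene of bile acid transport and conjugation passed the test between compost and control. Of 17 such genes, 17 had a probe and 14 were tested: 6 had a higher and 8 a lower mean in compost, 0 passed, and the median difference was -0.05, against -0.02 over all probes tested. The groups lay apart for 1 gene higher in compost and 4 lower, that is 1 and 4 of 14 beside the 12.3% and 15.6% over all probes. Slc51a and Slc51b, the subunits of the basolateral exporter and FXR targets themselves, were nearly level. Slc51a measured 6.54 and 6.64 in control and 6.53 and 6.75 in compost (difference 0.05 ± 0.19, 95% interval -0.45 to 0.55, and 0.0020 without control 1). Slc51b measured 5.42 and 5.66 in control and 5.54 and 5.95 in compost (0.21 ± 0.23, and 0.08 without control 1).

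The canalicular and apical conjugate exporter gene Abcc2 measured 1.09 and 0.39 in control and -1.78 and -0.03 in compost, a difference of -1.65 ± 0.64 that did not pass (unadjusted p = 0.0536, adjusted p = 0.9997 by limma). Baat, which joins bile acids to taurine or glycine, measured 0.49 and -1.03 in control and -2.01 and -1.21 in compost. Control 1 was highest and compost 1 lowest for both genes. The Abcc2 difference was -1.30 without control 1, -0.78 without compost 1 and -2.53 without compost 2, and that of Baat was -0.58 without control 1 and -2.10 without control 2. Slco2b1, an organic anion uptake carrier, differed by -0.45 ± 0.21, and the phospholipid exporter gene Abcb4 by 0.56 ± 0.19, in groups that did not overlap. Abcb4 was dim, at -4.581 and -4.766 in control and -4.054 and -4.175 in compost, though well above background on all arrays. Slco2b1 was -0.26 without compost 2. Neither gene passed.

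The absorptive enterocyte markers also had lower means in compost. Of 13 such markers 11 had a probe under the names used and were well above background on all arrays. All 11 had a lower mean in compost, with a median difference of -0.53 and 0 that passed. Sucrase-isomaltase was not looked up, because its listed name, Sis, was read as the gene Pdgfb. Compost 1 was lowest for 10 of the 11, beside 36.9% of all probes tested, and control 1 was highest for 10, beside 22.5%. Without control 1 the mean was lower for 10 of the 11, with a median of -0.35, and without compost 1 for 9, with a median of -0.23. Their summed linear scaled level was 1004 to 1197 in control and 718 to 962 in compost, while that of 7 general epithelial markers was 1363 to 1389 in control and 1254 to 1565 in compost. Such sums weigh the brightest probes most. The mean scaled log2 level was 4.557 to 4.895 in control and 3.857 to 4.453 in compost for the enterocyte markers. For the epithelial markers it was 7.417 to 7.441 in control and 7.297 to 7.576 in compost. The part of the enterocyte markers in the differences of Abcc2, Baat and Nr0b2 was not tested.

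The main genes of bile acid synthesis in the liver were not detected in this tissue. Cyp7a1, the rate-limiting enzyme of the liver pathway, Cyp8b1, which makes cholic acid, the reductase gene Akr1d1 and Klb, the coreceptor for Fgf15, were not well above background on any array. Of the 11 genes 6 were tested, of which 2 had a higher and 4 a lower mean in compost. Cyp27a1, the mitochondrial sterol hydroxylase that opens the alternative pathway, differed by -0.21 ± 0.17, and Fgfr4, the Fgf15 receptor, by 0.25 ± 0.28, a difference that was near 0 without control 1 (0.00092) and without compost 1 (0.019). None of the 6 passed. Acox2, a peroxisomal oxidase that shortens the bile acid side chain, was well above background in control 1 alone (-5.08).

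Among 27 transcription factors and cofactors that act with FXR or on ileal genes, 26 had a probe and 25 were tested. Of these, 9 had a higher and 16 a lower mean in compost, 0 passed, and the groups lay apart for 2 higher and 8 lower, beside 12.3% and 15.6% of all probes. The counts were 6 higher and 19 lower without control 1, and 12 and 13 without control 2. The RXR partners of FXR were detected on all arrays, with differences of -0.07 ± 0.29 for Rxra (-0.37 without control 1) and 0.03 ± 0.22 for Rxrb (-0.02 without it). Rxrg differed by -0.51 ± 0.28 (-0.18 without compost 2) and the coactivator gene Ncoa2 by -0.29 ± 0.18, in groups that did not overlap. Neither passed.

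Ppargc1a, a coactivator of nuclear receptors and of mitochondrial genes, measured -2.53 and -3.36 in control and -4.35 and -3.82 in compost. Its difference of -1.14 ± 0.37 had the smallest unadjusted p of this list (0.0289, adjusted p = 0.9997 by limma), and was -0.73 without control 1. Nr5a2 (LRH-1), which binds the promoter of Nr0b2, measured 0.19 and 0.64 in control and -0.10 and 0.04 in compost. Its difference of -0.44 ± 0.23 did not pass. It was -0.67 without control 1 and -0.22 without control 2. As for Nr0b2, control 2 had the highest value. Hnf4a (-0.05 ± 0.19, and -0.18 without control 1) and Cdx2 (-0.02 ± 0.28, and -0.13 without it), which set intestinal identity, had differences within 1 SE of 0, though without compost 1 that of Cdx2 was 0.30.

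Of 10 genes described as intestinal FXR targets outside this set, 9 were tested, with 5 higher and 4 lower means in compost and 0 that passed. Without control 1 the counts were 3 and 6. The inducible nitric oxide synthase gene Nos2 had the largest difference, at -7.32 and -5.40 in control and -3.92 and -3.52 in compost (2.64 ± 0.66, unadjusted p = 0.0122, adjusted p = 0.9997 by limma). Control 1 was not well above background, and without it the difference was 1.68. Car12, a membrane carbonic anhydrase, differed by 1.02 ± 0.80 in groups that overlapped. Control 1 was not well above background for Car12 either, and without it the difference was -0.08. The steroid hydroxylase gene Cyp3a9 differed by -0.61 ± 0.25 (-0.34 without control 1), and Sdc1, a cell-surface proteoglycan gene, by -0.01 ± 0.21 (-0.16 without it). The list had no shared direction.

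Distal small intestinal markers were detected in every rat, together with proximal ones. All 9 of 9 distal markers were well above background on all 4 arrays, 6 with a higher and 3 with a lower mean in compost, and the groups overlapped for every one of the 9. Without control 1 the counts were the same, and without compost 1 they were 4 and 5. They included Nts, the neurotensin gene of ileal endocrine cells, at 5.00 and 4.20 in control and 4.43 and 4.91 in compost. The L-cell peptide gene Pyy measured 5.62 and 5.29 in control and 5.40 and 5.84 in compost, and Gcg, which encodes glucagon-like peptides, 2.05 and 1.94 in control and 2.85 and 1.79 in compost.

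The vitamin B12 receptor of the ileum is made of cubilin and amnionless. Cubn measured 2.83 and 1.62 in control and 1.09 and 1.72 in compost, with control 1 highest, and its difference of -0.82 ± 0.48 was -0.21 without that array and -0.50 without compost 1. Amn measured 5.77 and 5.48 in control and 4.86 and 5.51 in compost. The endocytic adaptor gene Dab2 was at -1.90 and -2.06 against -1.01 and -2.69, and Osr2 at 3.07 and 3.23 against 3.04 and 3.13. These markers did not single out control 1 as a group: it was highest for 3 of the 9 and lowest for 1.

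Of 16 proximal markers 15 had a probe and 11 were well above background on all arrays, among them the duodenal and jejunal hormone genes Gip, Sct and Cck. Of these 11, control 1 was highest for 7, whereas it was highest for 22.0% of the 26110 probes detected on all arrays. It was also highest for 10 of the 11 absorptive enterocyte markers, so this excess was not particular to the proximal markers. Control 1 was lowest for 2 of the 11 proximal markers, beside 23.9% of probes detected on all arrays. These were Sct (5.85 against 6.12, 6.29 and 6.67) and Cck (0.35 against 0.56, 0.41 and 0.63). Gip, the incretin of upper intestinal K cells, measured 2.80 in control 1 against 0.01 in control 2, -0.08 in compost 1 and 1.46 in compost 2. Slc46a1, the folate carrier of the proximal intestine, measured -0.66 in control 1 against -3.57, -3.66 and -3.89. Ada, adenosine deaminase, measured 5.62 against 4.64, 4.62 and 4.67. For Slc46a1 and Ada control 2 sat with the compost rats.

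Colon markers ran the other way in control 1, which was lowest for 2 of the 3 that were well above background on all arrays, against 23.9% of such probes. Car1, the colonic carbonic anhydrase, measured -2.45 in control 1, 2.12 in control 2, 1.57 in compost 1 and 1.62 in compost 2. The water channel gene Aqp8 was not well above background in control 1 (-5.79) and measured -2.54, -4.55 and -3.76 in the others. The hindmost patterning genes Hoxb13 and Hoxd13 were not well above background in any rat. Control 1 thus combined the only Gata4 signal and high Gip and Slc46a1 with low Car1 and Aqp8, and it had the lowest Slc10a2 and Nr1h4. It also had the lowest Sct and Cck, so its proximal markers did not all go the same way. The part of these markers in the Slc10a2 and Nr1h4 values was not tested.

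**Figure D3:**
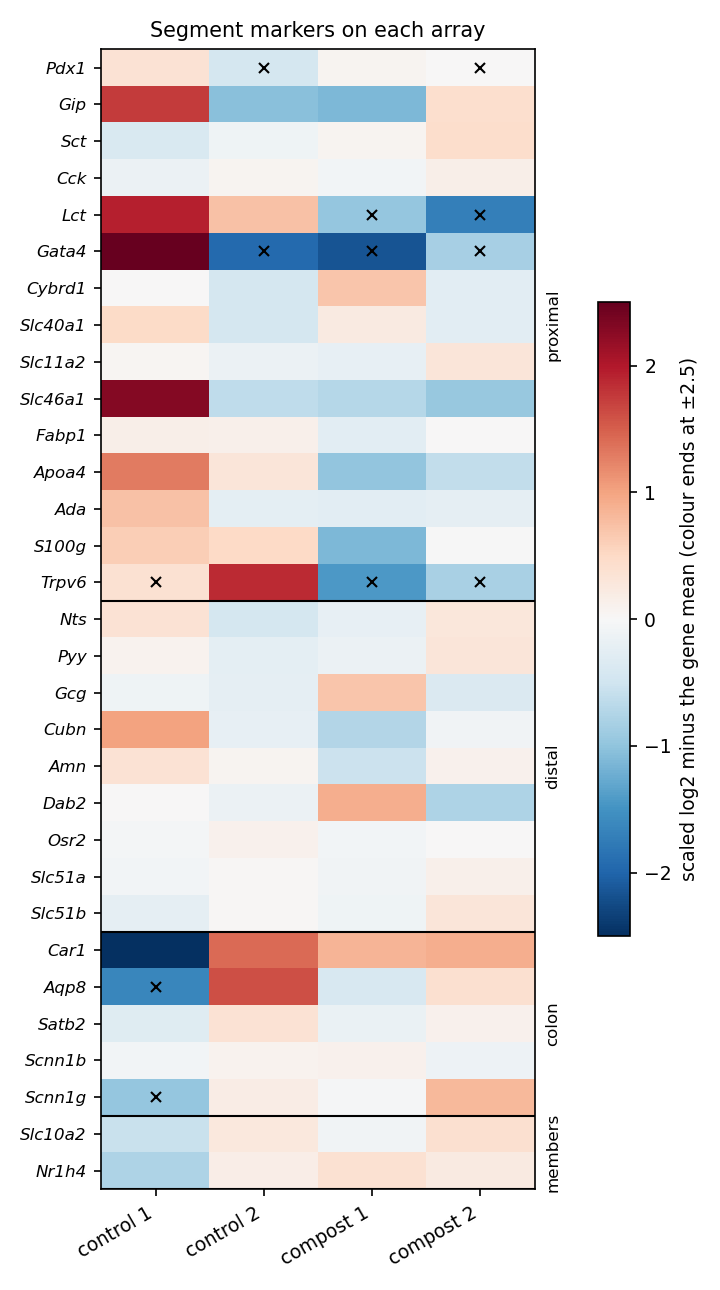
Segment markers detected on at least 1 array, with Slc10a2 and Nr1h4 below, coloured by scaled log2 intensity minus the gene's mean over the 4 arrays (colours end at the limits of the bar); crosses mark values not well above background. Control 1 holds the highest Gata4 (-0.74), Gip (2.80) and Slc46a1 (-0.66) and the lowest Car1 (-2.45), but also the lowest Sct and Cck. The 9 distal markers are detected on every array.

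Of the 11 proximal markers detected on all arrays, 4 were lower in both compost rats than in both control rats, beside 15.1% of probes detected on all arrays, and none passed. Lct, the lactase gene, was detected in the control rats alone and is not among the 11. It measured -3.00 and -4.21 in control and was not well above background in compost (-5.89 and -6.64), which makes it at least 4.01-fold lower in compost (adjusted p = 0.9997 by limma). This bound sets the control mean against the lowest signal counted as well above background on each compost array, or the probe's own value where that is higher. Apoa4, an apolipoprotein of fat absorption, measured 9.06 and 8.06 against 6.78 and 7.14 (-1.61 ± 0.39). Sct, the secretin gene, differed the other way (0.50 ± 0.23). S100g, the calcium carrier calbindin-D9k, measured 4.38 and 4.27 against 2.64 and 3.76 (-1.12 ± 0.41). The Apoa4 difference was -1.11 without control 1 and the S100g difference -0.57 without compost 1. Over the 11 markers the median was -0.27 with 4 higher and 7 lower means in compost, and without control 1 it was 0.0038 with 6 higher and 5 lower. The proximal marker Pdx1 was well above background only in control 1 and compost 1, and Trpv6 only in control 2. Every sample thus held the ileal uptake genes, all the distal markers and most of the proximal markers, though not Gata4, Lct, Pdx1 or Trpv6 throughout. No single segment can be assigned to the samples from these lists.

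The genes whose values over the 4 arrays were most like those of Fgf15, Nr0b2 or Nr1h4 are named here as a description. Likeness was measured as the root mean square difference between log2 values, each centred on its gene's mean over the 4 arrays, among 11412 genes, and was computed for genes with a range of at least 1 log2 unit, which left out Slc10a2 (0.96). The gene nearest to Fgf15 was Ghsr, the ghrelin receptor gene (difference 0.106), at -5.87 and -3.18 in control and -4.94 and -6.37 in compost. It was followed by Scgb3a2 (0.257), a secretoglobin gene, Gpr158 (0.269), an orphan receptor gene, Gata2 (0.358), a transcription factor gene of blood cells, and Asrgl1 (0.362). Ghsr, Scgb3a2 and Gpr158 were not well above background in control 1 or compost 2, so their low values there, and with them their ranks, rest on undetected signal. Nr0b2 was at rank 133 from Fgf15, with a difference of 0.746.

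The genes nearest to Nr0b2 were Fgf1 (0.066), Tmem144 (0.097), Cyp4f5 (0.106), Tfe3 (0.108) and Cyp4f4 (0.111), of which the Cyp4f genes encode fatty acid omega-hydroxylases. Fgf1 and Cyp4f4 were not well above background in compost 2. Cyp4f5 measured 4.58 and 5.14 in control and 4.14 and 3.86 in compost. Those nearest to Nr1h4 were Mybpc2 (0.040), Rnf187 (0.044), Pir (0.049), Slc1a4 (0.052) and Asns (0.060). Asns, asparagine synthetase, measured 1.21 and 2.05 in control and 2.41 and 2.12 in compost. All 5 were lowest in control 1, which follows from choosing them by likeness to Nr1h4. Slc1a4 was not well above background in control 1 or compost 2. With 4 arrays and 11412 genes, close profiles carry no test.

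**Figure D4:**
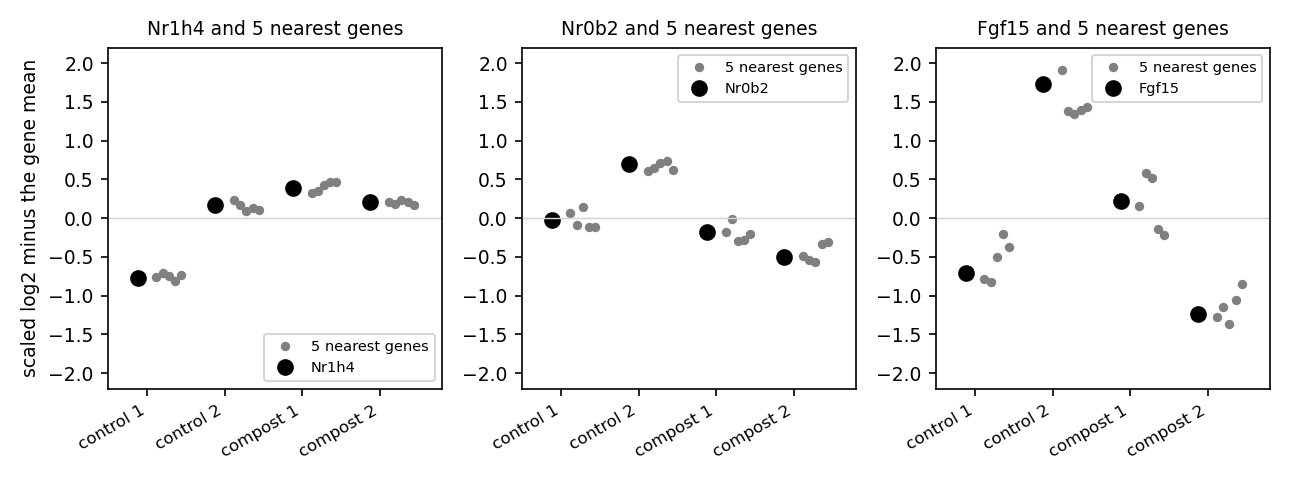
Scaled log2 intensity minus the gene's mean over the 4 arrays for Nr1h4, Nr0b2 and Fgf15 (black) and for the 5 genes nearest to each (grey, offset sideways). The Nr1h4 group is low in control 1 alone, while the Nr0b2 and Fgf15 groups are highest in control 2 and lowest in compost 2. The grey genes were chosen by likeness to the black ones, so they share these shapes by selection.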

How the data were processed

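Total RNA was labelled with Cy3 and hybridised to 4 single-colour arrays, 1 per rat. The deposited scanner files hold a processed intensity from Agilent Feature Extraction 9.1.3.1, background-subtracted and detrended per the file headers and not scaled between arrays. The authors' deposited value table holds the same intensity, rounded, within 0.5% of the scanner values, with column medians of 80.2, 79.4, 102 and 73.9 on a linear, uncentred scale.

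Control spots and outlier spots were left out and repeat spots of a probe averaged. Log2 processed intensity minus each array's 75th percentile was fitted with limma 3.58.1 in R 4.3.3 (lmFit, eBayes), without covariates, over 28417 probes, those that 2 or more of the 4 arrays showed well above background. The fit was tested on simulated data. The alternatives covered background correction, scaling, filters, the value table, variance estimation, a replicate block and leaving out each array. Gene names were updated through the GRCr8 table (10835 probes by accession, 5201 by symbol and 3488 by synonym), and 21488 kept the file's name. A listed gene was represented by its tested probe with the highest mean. Up to 4 genes per list with the smallest unadjusted p were named, with every distal marker, every gene of the set and the 5 nearest profiles. Gata4, Gip, Cck, Slc46a1, Ada, Pdx1, Trpv6, Aqp8, Rxra, Rxrb, Hnf4a, Cdx2, Sdc1, Acox2 and the undetected synthesis and Hox genes were named after their values were seen. The genes and lists were chosen with earlier results of these data known. P-values measure the spread between individual rats of 1 study.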

Additional observations from a re-analysis of the deposited data

How the results depend on the processing

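None of Slc10a2, Nr1h4, Nr0b2 and Fgf15 reached an adjusted p under 0.05 by limma in any of 14 alternatives (adjusted p from 0.624 to 1). Over the 10 that kept all arrays the differences were 0.28 to 0.34 for Slc10a2, 0.56 to 0.64 for Nr1h4, -0.69 to -0.64 for Nr0b2 and -1.03 to -0.94 for Fgf15. Leaving out each array gave -0.11 (without control 1) to 0.72 for Slc10a2, 0.13 to 1.07 for Nr1h4, -1.04 to -0.32 for Nr0b2 and -2.23 to 0.20 (without control 2) for Fgf15, where a lone rat is assumed to vary like the other group. Probes called higher numbered 1 with normexp background correction and 0 to 2 (2 without control 2) with an array left out, and none were called lower (0). Leaving out an array widened the count of probes whose groups lie apart, as fewer arrays make it, to 6210 to 10304 higher and 8312 to 12234 lower. The direction of the 4 differences was kept under each scaling tried.

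The deviations of same-numbered rats from their group means correlated at -0.036. The value of 0.036 for unequal numbers is the same result with its sign reversed, because deviations within a group mirror each other. A correlation this small from so few rats neither shows nor excludes a pairing of the samples by number. With a replicate block 0 probes were called, and Slc10a2 differed by 0.30 ± 0.24. Saturation limits Fabp6 and dim signal limits Gpbar1. Lists were also counted without each array, and over the genes detected on all arrays, alternatives chosen after seeing the data.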

Other observations

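Markers of other cell types are given as values, none of which passed (0 by limma with adjusted p under 0.05). The 3 B cell and follicle markers detected on all arrays, Cd79b, Cd72 and Cxcl13, were higher in both compost rats than in both control rats, beside 12.4% of probes detected on all arrays, with differences of 2.42, 1.45 and 3.24. Ms4a1 and Cr2 were well above background in the compost rats alone, and passed the filter on dim probes through these arrays. Ms4a1 measured -5.572 in compost 1 and -2.848 in compost 2, and Cr2 -5.295 and -1.097. Their compost means were at least 2.61-fold and 5.28-fold above control, bounds that rest mostly on compost 2. Of 10 enteroendocrine markers 9 had a higher mean in compost (median 0.26), and 6 without compost 1. All 4 smooth muscle markers did (median 0.15), but 2 of 4 without control 1 (median -0.04) and 1 of 4 without compost 1 (median -0.05). All 9 macrophage markers did (median 0.60), and 6 without compost 1 (median 0.13). Of 11 liver markers 5 were tested, of 9 exocrine pancreas markers 6 and of 7 stomach markers 2, with median differences of 0.04, -0.30 and 0.08.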
